A study of Mus musculus with 24 samples.

Results

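Troponin is the calcium switch of striated muscle, and the 8 troponin genes of the mouse are described here in C2C12 cells, an established line of mouse skeletal myoblasts that fuse into myotubes when serum is withdrawn. The genes were chosen by name, with earlier results of these data known. They are Tnnt1, Tnnt2 and Tnnt3 for troponin T, Tnni1, Tnni2 and Tnni3 for troponin I, and Tnnc1 and Tnnc2 for troponin C. All 8 are among the 24043 gene symbols of the table, and all 8 passed the filter that left 12389 genes for testing, a mean of at least 1 FPKM (fragments scaled by transcript length and library size) in at least 1 group. The study asks how low oxygen alters the response of myoblasts to differentiation medium. Its RNA-seq part has 8 libraries in 4 groups, and each group has 2 libraries, A and B. The groups are cells in growth medium (DMEM with 10% fetal bovine serum) at 21% oxygen (normoxia), cells in growth medium at 2% oxygen (hypoxia), cells in differentiation medium (DMEM with 2% horse serum and an insulin, transferrin and selenium supplement) at 21% oxygen, and cells in differentiation medium at 2% oxygen. The total number of days in differentiation medium is not given in the labels, no group carries an engineered allele, and all groups come from the same cell line. The series calls A and B biological replicates of the one line without saying how the cultures were kept apart, so p-values measure the spread between these libraries.

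Troponin sits on the thin filament with actin and tropomyosin. Troponin T anchors the complex to tropomyosin, troponin I holds actin and myosin apart at rest, and troponin C binds calcium and releases that block. Each subunit has isoforms named after the muscle in which they prevail. Tnnt1 and Tnni1 encode the slow skeletal forms, Tnnt3 and Tnni2 the fast skeletal forms, Tnnt2 and Tnni3 the cardiac forms, Tnnc1 the form shared by slow skeletal and cardiac muscle, and Tnnc2 the fast skeletal form. Embryonic skeletal muscle also makes the cardiac form of troponin T, while the cardiac form of troponin I is known as a marker restricted to heart. The troponin T and I genes lie in pairs along the chromosomes, whereas the troponin C genes stand alone.

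Promoter sequence is shown for 4 of the genes because they form 2 pairs that the results contrast. Tnnt1 and Tnni3 are immediate neighbours of which the former rose in differentiation medium at 21% oxygen and the latter was not called changed, and Tnnc1 and Tnnc2 are the 2 genes of the calcium-binding subunit, whose levels in undifferentiated cells lay far apart. The sequences are the 250 bases upstream of the annotated start, 5′ to 3′ on the strand of the gene, from RefSeq (GRCm38.p6, a later build than the mm9 named in the submitters' processing notes). They lie at chr7:4515976-4516225 (minus strand), chr7:4522529-4522778 (minus strand), chr14:31208062-31208311 (plus strand) and chr2:164779735-164779984 (minus strand). Capitals mark matches, on either strand, to the E-box CANNTG (the site class of MyoD and myogenin), the MCAT site CATTCC (the site class of TEAD factors) or the TATA box TATAAA.
Tnnt1: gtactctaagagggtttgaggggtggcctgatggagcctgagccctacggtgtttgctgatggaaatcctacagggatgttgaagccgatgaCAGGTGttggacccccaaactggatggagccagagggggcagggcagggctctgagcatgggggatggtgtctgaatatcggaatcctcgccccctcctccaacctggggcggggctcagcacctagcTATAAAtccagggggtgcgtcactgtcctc
Tnni3: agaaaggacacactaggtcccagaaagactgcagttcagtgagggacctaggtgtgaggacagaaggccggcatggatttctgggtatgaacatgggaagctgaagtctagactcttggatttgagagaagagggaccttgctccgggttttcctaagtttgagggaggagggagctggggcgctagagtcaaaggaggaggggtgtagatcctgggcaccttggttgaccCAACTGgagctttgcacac
Tnnc1: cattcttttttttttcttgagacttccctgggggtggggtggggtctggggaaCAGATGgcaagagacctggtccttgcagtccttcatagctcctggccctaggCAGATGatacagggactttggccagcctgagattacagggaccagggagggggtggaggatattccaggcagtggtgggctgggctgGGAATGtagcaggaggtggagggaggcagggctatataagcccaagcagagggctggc
Tnnc2: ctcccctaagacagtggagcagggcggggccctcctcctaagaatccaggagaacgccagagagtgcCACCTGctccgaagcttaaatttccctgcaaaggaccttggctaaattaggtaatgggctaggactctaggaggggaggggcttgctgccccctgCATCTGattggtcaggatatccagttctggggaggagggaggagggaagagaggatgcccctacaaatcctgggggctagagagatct

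The Tnnt1 window held 1 E-box, 158 bases before the start, and a TATA box 30 bases before it, and the Tnni3 window held 1 E-box 19 bases before the start. The Tnnc1 window held E-boxes 197 and 145 bases before the start and an MCAT match on the reverse strand at 58 bases, and the Tnnc2 window held E-boxes at 183 and 88 bases. E-boxes are common letters: 66.2% of the 32851 RefSeq windows of 250 bases (27025 genes) held one, against 12.6% for MCAT and 12.4% for the TATA box. All 6 members with a window, Tnnt2 and Tnni1 included, held at least 1 E-box, Tnni3 among them. The narrower E-box CAGCTG, found in 13% of all windows, was in the first Tnnt2 window, 223 and 157 bases before the start, and in the first Tnni1 window, 68 bases before it. Sites of the MEF2 kind (2.92% of all windows) and of the CArG kind (1.47%) had no match in the windows of the members. Windows for Tnnt3 and Tnni2 were not used here. A match describes letters and not a bound site.

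The libraries had 14917 to 15672 genes above 0, and their FPKM summed to 480018 to 534167. A rough guide to depth was taken from intronless receptor genes of 800 to 1100 bp. Their values between 0.05 and 0.1 FPKM, scaled to a transcript of 1 kb, were assumed to be 1 fragment. Between 2 and 11 of 1111 genes a library fell in this window, with medians of 0.0552 to 0.0865 FPKM. The window was set in advance and bounds these medians, so they do not measure depth. Under that assumption, values up to 0.166 to 0.26 FPKM rest on about 3 fragments or fewer at that length. The 8 skeletal myoblast and muscle markers were all detected and summed to 464 to 551 FPKM (growth medium) and 4080 to 4150 (differentiation medium) at 21% oxygen, and to 126 to 130 and 90.4 to 126 at 2% oxygen. Of 6 cardiomyocyte markers, Nppa was at 0 in every library and Myl7 stayed under 1 FPKM. The cardiomyocyte sum was 4.92 to 6.79 FPKM in 7 libraries and 15.5 in hypoxic differentiation replicate B. The other marker sums ran from 87.9 to 511 FPKM for 5 smooth muscle genes (Myh11 under 1), 43.4 to 63.9 for 5 fibroblast genes (Lum under 1), 3.54 to 25 for 5 adipocyte genes (Plin1 at 0, Adipoq under 1) and 15.7 to 102 for 5 cartilage and bone genes (Col2a1, Acan and Sp7 under 1). The smooth muscle list includes Des, which is also in the skeletal list. In normoxic differentiation medium, where the smooth muscle sum was 511 and 498 FPKM, Des had a mean of 479, Smtn 23.7 and Cnn1 0.187. The replicates of hypoxic differentiation medium stood apart: 613 tested genes differed by over 2-fold between them, against 56 to 71 in the other groups, and the proliferation marker Mki67 read 3.46 FPKM in A and 23.6 in B. All 8 troponin genes were higher in A than in B of that group, and the part of this difference in the troponin values was not tested.

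Differentiation medium at 21% oxygen raised 7 of the 8 troponin genes, and 6 of them by over 30-fold. Tnni3, the cardiac troponin I gene, was the exception. Of all tested genes, 25.5% were called higher and 41.0% lower in this comparison, or 34.7% and 30.5% after median-of-ratios scaling between libraries (limma on log2(FPKM + 1), Benjamini-Hochberg adjusted p under 0.05 over all tested genes). The median change of the 8 genes was 7.88 on the log2 scale, against −0.20 for all tested genes. The cells are measured in bulk, so a change in the number of cells that express a gene and a change in RNA per cell cannot be told apart.

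**Figure D1:**
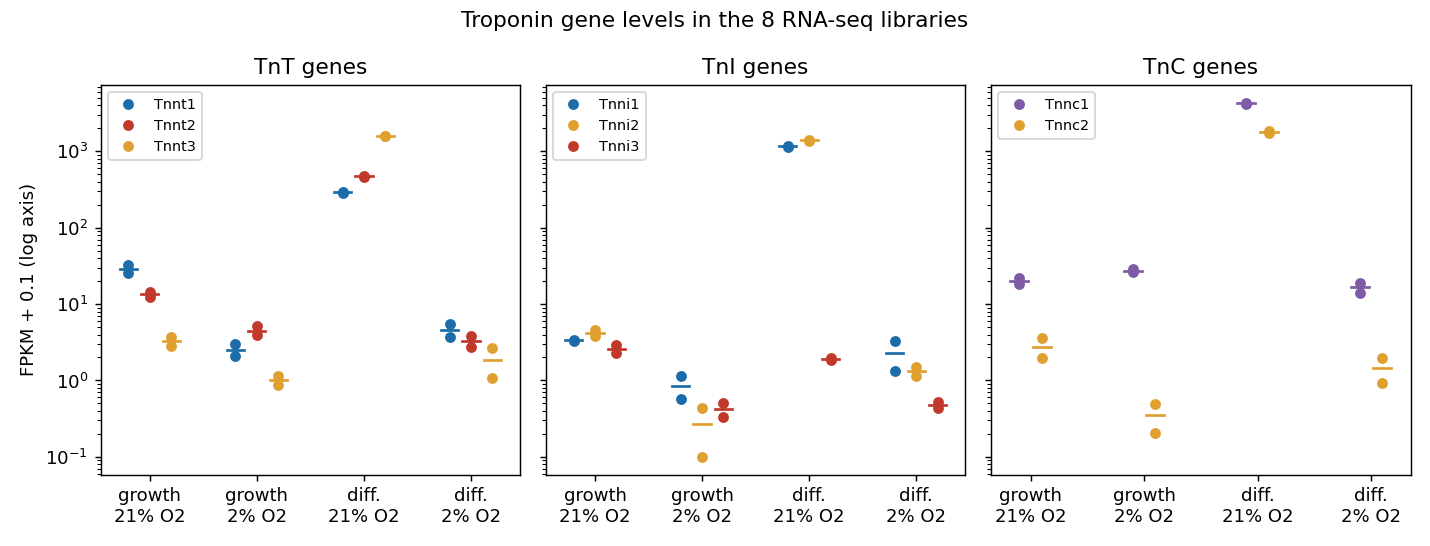
FPKM plus 0.1 on a log axis for the troponin T, I and C genes in the 4 groups. Each point is 1 library, and short horizontal lines mark the mean of the 2 libraries of a group. In normoxic differentiation medium 7 genes lie between 289 and 4336 FPKM, while Tnni3 stays under 3 FPKM in every library.

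Troponin T went from mostly the slow form to mostly the fast form, at a higher level. Tnnt3, the fast form, read 3.62 and 2.73 FPKM (A and B) in normoxic growth medium and 1579 and 1568 in normoxic differentiation medium, which is 496-fold (log2 change 8.57 ± 0.26 SE, adjusted p = 9.9e-07). Tnnt2, the cardiac and embryonic form, read 14.4 and 12.3 FPKM in growth medium and 479.8 and 456.5 in differentiation medium (35.2-fold, 5.04 ± 0.16, adjusted p = 1.32e-06). Tnnt1, the slow form, read 32.1 and 25.5 FPKM and then 294.6 and 288.7 (10.1-fold, 3.31 ± 0.21, adjusted p = 2.1e-05). The libraries of the 2 media did not overlap for any of the 3 genes, and the gene with the highest level in growth medium had the smallest rise.

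Both skeletal troponin I genes rose, and the cardiac one was not called changed. Tnni1, the slow form, read 3.28 and 3.21 FPKM in normoxic growth medium and 1174 and 1156 in normoxic differentiation medium (359-fold, log2 change 8.10 ± 0.29 SE, limma adjusted p = 2.15e-06). Tnni2, the fast form, read 4.45 and 3.74 FPKM and then 1408 and 1383 (341-fold, 8.10 ± 0.16, adjusted p = 2.15e-07). Their changes were alike in size although 1 gene belongs to the slow and the other to the fast program. Tnni3 read 2.81 and 2.17 FPKM in growth medium and 1.74 and 1.87 in differentiation medium. Its libraries lay lower in differentiation medium without overlap, but the change of −0.31 ± 0.13 (95% interval −0.61 to −0.01) had an adjusted p of 0.0667. Without growth medium replicate B it was −0.44, with an adjusted p of 0.032.

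Troponin C gave the highest level and the steepest rise of the family. Tnnc1, the slow and cardiac form, read 21.7 and 18.3 FPKM in normoxic growth medium and 4134 and 4336 in normoxic differentiation medium (211-fold, log2 change 7.66 ± 0.15 SE, limma adjusted p = 2.11e-07). Tnnc2, the fast form, read 3.45 and 1.87 FPKM and then 1726 and 1823 (667-fold, 8.96 ± 0.28, adjusted p = 1.06e-06). By mean FPKM in normoxic differentiation medium, Tnnc1 ranked 4 among all 24043 genes and Tnnc2 ranked 25. The other members ranked 32 (Tnnt3), 40 (Tnni2), 55 (Tnni1), 158 (Tnnt2), 261 (Tnnt1) and 10331 (Tnni3). Within that group the means and SDs (n = 2) ran 4235 ± 143, 1774 ± 69.0, 1574 ± 7.39, 1395 ± 17.9, 1165 ± 12.3, 468.2 ± 16.4, 291.7 ± 4.13 and 1.80 ± 0.0961 FPKM for Tnnc1, Tnnc2, Tnnt3, Tnni2, Tnni1, Tnnt2, Tnnt1 and Tnni3. Neighbours in this order differed by more than their SDs throughout.

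At 2% oxygen the same change of medium left 7 of the 8 troponin genes under 6 FPKM in every library, and Tnnc1 under 20 FPKM. Of all tested genes, 23.3% were called higher and 17.6% lower. Among the troponin genes 3 were called higher (Tnni2, Tnnc2 and Tnnt1), 1 lower (Tnnc1) and 4 neither. The median change of the 8 genes was 0.58, against 0.07 for all tested genes.

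Tnni2 was listed at 0 and read 0.334 FPKM in hypoxic growth medium A and B, and 1.40 and 1.03 in hypoxic differentiation medium (log2 change 0.94 ± 0.16 SE, limma adjusted p = 0.00531). The ratio of its means was 7.30, or 3.65 without the library at 0, and the log2 change was 2.65 with a pseudocount of 0.1. Tnnc2 read 0.399 and 0.106 FPKM and then 1.86 and 0.841 (0.88 ± 0.28, adjusted p = 0.0417). Its means differed 5.36-fold, or 3.34-fold to 12.8-fold without 1 of the libraries, and the log2 change was 2.09 with a pseudocount of 0.1. Tnnt1 read 1.97 and 2.86 FPKM and then 5.47 and 3.58 (0.69 ± 0.21, adjusted p = 0.0369). The libraries of the 2 media did not overlap for these genes, although the levels in differentiation medium stayed below those of normoxic growth medium for all 3. Tnnc1 moved the other way, from 26.0 and 28.6 FPKM to 19.0 and 13.9 (−0.71 ± 0.15, adjusted p = 0.0115), again with no overlap.

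The remaining 4 genes missed the threshold. Tnnt2 read 3.802 and 4.996 FPKM in hypoxic growth medium and 3.68 and 2.63 in hypoxic differentiation medium (log2 change −0.38, limma adjusted p = 0.106). Tnni1 read 0.465 and 1.05 FPKM and then 3.20 and 1.24 (0.82, adjusted p = 0.0626). Tnnt3 read 1.04 and 0.779 FPKM and then 2.53 and 0.993, with overlapping libraries (0.48, adjusted p = 0.187). Tnni3 read 0.235 and 0.415 FPKM and then 0.418 and 0.331, also overlapping (0.06, adjusted p = 0.764). Of the called rises, that of Tnni2 kept its call without each library in turn but not when a log2 change of at least 1 was required. Those of Tnnt1 and Tnnc2 lost it without either normoxic differentiation library, either hypoxic growth library or hypoxic differentiation replicate A, with adjusted p up to 0.189 and 0.198, and the fall of Tnnc1 lost it without hypoxic growth replicate B (0.0776). Without hypoxic differentiation replicate B, Tnnt3 (0.89, adjusted p = 0.00616) and Tnni1 (1.28, adjusted p = 0.0039) were called higher, and without replicate A Tnnt2 was called lower (−0.56, adjusted p = 0.0267).

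Low oxygen in growth medium was accompanied by lower levels of 7 of the 8 troponin genes before any differentiation signal was given, while Tnnc1 was not called. Of all tested genes, 28.0% were called lower and 13.5% higher in this comparison, or 18.8% and 20.3% after upper-quartile scaling and 22.2% and 16.9% after median-of-ratios scaling. The median change of the 8 genes was −1.40 on the log2 scale, against −0.14 for all tested genes. These values share the normoxic growth libraries with the first comparison and the hypoxic growth libraries with the second.

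Tnnt1 fell from 32.1 and 25.5 FPKM to 1.97 and 2.86 (11.9-fold, log2 change −3.13 ± 0.21 SE, limma adjusted p = 0.000122). Tnni2 fell by 2.14 ± 0.16, from 4.45 and 3.74 FPKM to values of which 1 was listed at 0 and the other was 0.334 (adjusted p = 0.000213), a 24.5-fold lower mean, or 12.3-fold without the library at 0. Which of these is the larger fall depends on the scale, since with a pseudocount of 0.1 the log2 change was −4.33 for Tnni2 and −3.54 for Tnnt1. Tnnc2 fell by 1.52 ± 0.28 (adjusted p = 0.00542), Tnnt2 by 1.41 ± 0.16 (adjusted p = 0.000922) and Tnni3 by 1.40 ± 0.13 (7.67-fold, adjusted p = 0.000371). For Tnni3 the libraries of the 2 oxygen levels did not overlap, with 2.81 and 2.17 FPKM at 21% oxygen and 0.235 and 0.415 at 2% oxygen. Tnnt3 fell by 1.12 ± 0.26 (adjusted p = 0.014) and Tnni1 by 1.29 ± 0.29 (adjusted p = 0.013). With a pseudocount of 0.1 the changes were −3.05 for Tnnc2, −2.63 for Tnni3, −1.69 for Tnnt3 and −2.05 for Tnni1. The calls of Tnnt3 and Tnni1 depend on single libraries: for Tnnt3 the adjusted p was 0.0872 without growth medium replicate A at 21% oxygen, 0.0541 without replicate A at 2% oxygen and 0.0837 without replicate B at 2% oxygen. For Tnni1 it was 0.0686 and 0.058 without growth medium replicate A or B at 21% oxygen, and 0.0863 without replicate A at 2% oxygen. Tnnc1 read 21.7 and 18.3 FPKM at 21% oxygen and 26.0 and 28.6 at 2% oxygen (0.43 ± 0.15, adjusted p = 0.0619), without overlap of its libraries. It passed the threshold upward with upper-quartile scaling (0.62, adjusted p = 0.0336), in a fit of the 4 growth medium libraries alone (adjusted p = 0.0382), with library weights (adjusted p = 0.0134) and without either library of hypoxic differentiation medium (adjusted p = 0.0116 and 0.0115).

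**Figure D2:**
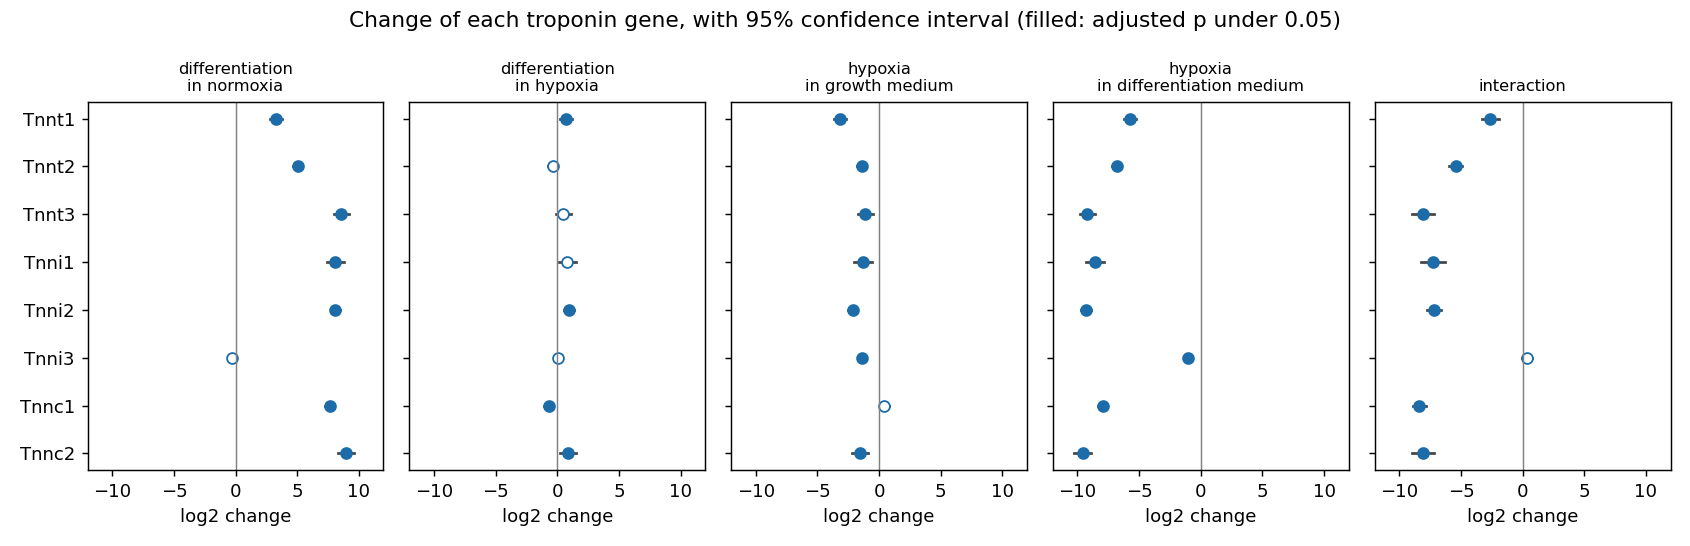
Log2 change of each troponin gene with its 95% confidence interval (limma, horizontal axis) in the 5 comparisons; filled points passed an adjusted p of 0.05. In differentiation medium the change with hypoxia is negative for all 8 genes, and Tnnc1 is the gene with a positive value in growth medium.

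In differentiation medium all 8 troponin genes were lower at 2% than at 21% oxygen, with no overlap between libraries. Of all tested genes, 27.7% were called lower and 37.5% higher, or 34.7% and 30.4% after median-of-ratios scaling. The median change of the 8 genes was −8.26, against 0.15 for all tested genes. Tnnc2 fell 1313-fold to 1.86 and 0.841 FPKM (log2 change −9.59 ± 0.28 SE, limma adjusted p = 7.33e-07), Tnni2 1145-fold (−9.30 ± 0.16, adjusted p = 1.49e-07) and Tnnt3 894-fold (−9.21 ± 0.26, adjusted p = 6.65e-07). Among all tested genes ordered from the largest fall these took places 3, 5 and 7. These are the fast skeletal genes of the 3 subunits. Tnni1 fell 525-fold (−8.57 ± 0.29, adjusted p = 1.51e-06), Tnnc1 258-fold (−7.94 ± 0.15, adjusted p = 1.65e-07), Tnnt2 148-fold (−6.83 ± 0.16, adjusted p = 3.27e-07) and Tnnt1 64.5-fold (−5.75 ± 0.21, adjusted p = 1.87e-06). Tnni3 fell 4.82-fold (−1.03 ± 0.13, adjusted p = 0.000434), from 1.74 and 1.87 FPKM to 0.418 and 0.331, and its log2 change was −2.01 with a pseudocount of 0.1. Without hypoxic differentiation replicate A the folds were larger, 2109 for Tnnc2, 1585 for Tnnt3 and 941 for Tnni1. Without replicate B they were smaller, 952.7 for Tnnc2, 622.7 for Tnnt3 and 363.9 for Tnni1. The fold of Tnni2, 994.7 without replicate B, was then above that of Tnnc2.

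The interaction is the differentiation change at 2% oxygen minus that at 21% oxygen. It was negative for 7 of the 8 troponin genes, with a median of −7.22 over the 8 against 0.27 over all tested genes, of which 18.7% had a called negative and 35.4% a called positive interaction (26.4% and 24.0% after median-of-ratios scaling). Values ran from −8.37 ± 0.22 SE for Tnnc1 (limma adjusted p = 2.05e-06) to −2.62 ± 0.29 for Tnnt1 (adjusted p = 0.000492). Tnni3 had an interaction of 0.37 ± 0.18 (adjusted p = 0.127). Its change with hypoxia was −1.40 in growth and −1.03 in differentiation medium.

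The isoform make-up of each subunit is a ratio within a library and does not depend on scaling between libraries. In normoxic growth medium Tnnt1 made up 64.1% and 63.0% of troponin T FPKM (A and B), Tnnt2 28.7% and 30.3%, and Tnnt3 7.23% and 6.74%. In normoxic differentiation medium Tnnt3 made up 67.1% and 67.8%, Tnnt2 20.4% and 19.7%, and Tnnt1 12.5% in both. The fast form thus went from the smallest to the largest share. In hypoxic growth medium Tnnt2 was the leading form with 55.8% and 57.9%, and in hypoxic differentiation medium Tnnt1 led with 46.8% and 49.7% while Tnnt3 held 21.6% and 13.8%. With 2 libraries a group, no exact permutation test of these shares can give a p under 0.333, so they stand as descriptions.

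Troponin I was a mixture of all 3 forms in normoxic growth medium, with Tnni1 at 31.1% and 35.2%, Tnni2 at 42.2% and 41.0% and Tnni3 at 26.7% and 23.8%. In normoxic differentiation medium Tnni2 held 54.5% and 54.4% and Tnni1 45.4% and 45.5%, and the share of Tnni3 was 0.0672% and 0.0737%. The level of Tnni3 itself was not called changed between these groups, while both skeletal forms rose. In hypoxic differentiation medium Tnni1 held 63.7% and 47.6%, Tnni2 27.9% and 39.7%, and Tnni3 8.33% and 12.7%. Tnnc1 was the main troponin C gene in every library. At 21% oxygen its share was 86.3% and 90.7% (growth medium) and 70.6% and 70.4% (differentiation medium), and at 2% oxygen it was 98.5% and 99.6% and then 91.1% and 94.3%.

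**Figure D3:**
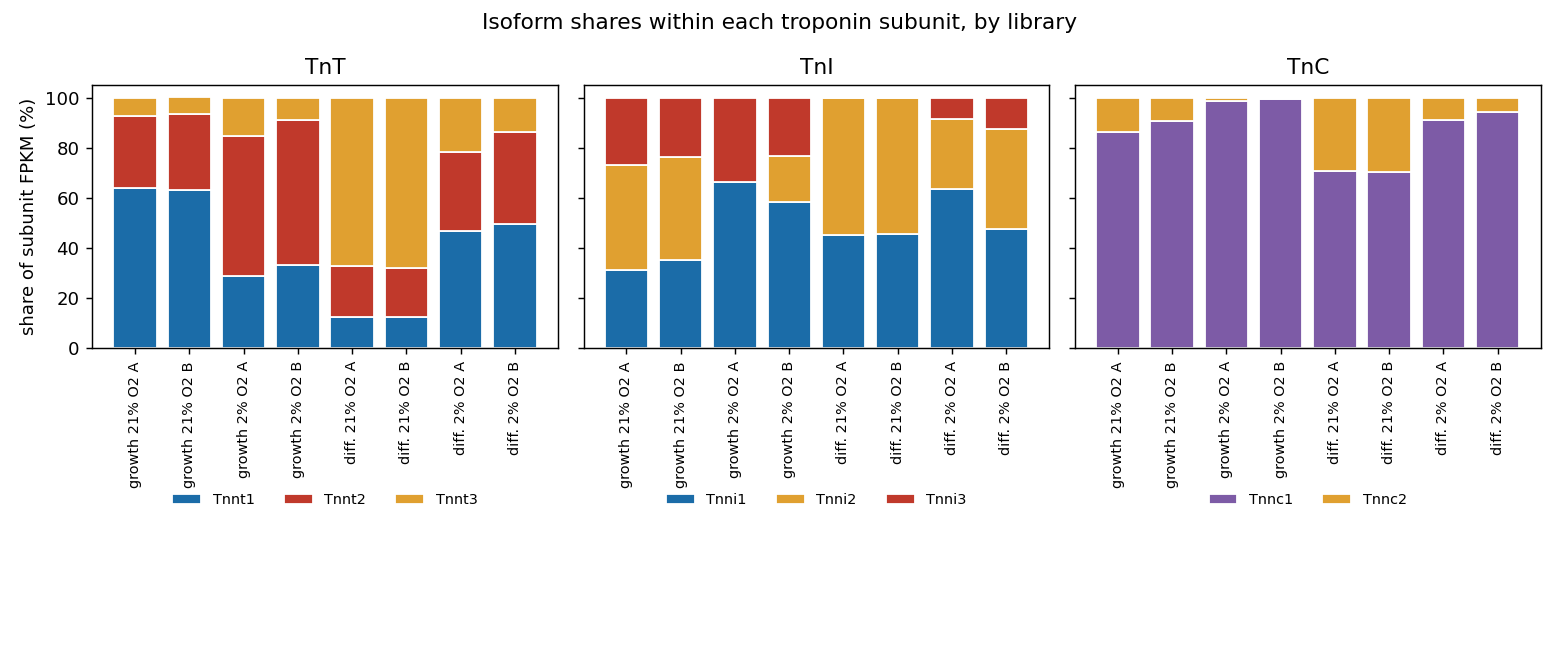
Share of each gene in the summed FPKM of its subunit (vertical axis, percent), 1 bar for each of the 8 libraries; colours stand for genes. Tnnt3 takes 67.1% and 67.8% of troponin T in normoxic differentiation medium, and Tnnc1 takes over 70% of troponin C in every library.

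The balance between subunits also differed by group. The summed FPKM of the troponin T genes was 4.75 and 4.44 times that of the troponin I genes in normoxic growth medium and 0.911 times it in both libraries of normoxic differentiation medium. The troponin C to troponin I ratio was 2.39 and 2.21 in normoxic growth medium and 2.27 and 2.42 in normoxic differentiation medium. In hypoxic growth medium it was 37.7 and 16, where Tnnc1 read 26.0 and 28.6 FPKM and troponin I summed to 0.700 and 1.80 FPKM. In hypoxic differentiation medium it was 4.15 and 5.64. All 8 genes together made up 2.2% and 2.25% of the summed FPKM of a library in normoxic differentiation medium and 0.0163% and 0.0145% of it in growth medium at the same oxygen level. At 2% oxygen they made up 0.00652% and 0.00732% in growth medium and 0.00717% and 0.0048% after the change of medium.

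Linked troponin genes differed in how alike they were. Tnni2 and Tnnt3 had close profiles, at a distance of 1.18 over the 8 libraries of log2(FPKM + 1), while Tnni1 and Tnnt2 lay 3.51 apart and Tnnt1 and Tnni3 5.86. Per the order in the RefSeq table, Tnni1 and Tnnt2 are separated on chromosome 1 by Lad1, which encodes a basement membrane protein of epithelia. Lad1 did not exceed 0.543 FPKM in any library, while its flanking troponin genes reached 1165 and 468.2 in the mean of normoxic differentiation medium. Tnni2 and Tnnt3 are separated on chromosome 7 by Lsp1, a gene for an actin-binding protein of leukocytes, which lay between 36 and 70.6 FPKM in all libraries. Its change with differentiation at 21% oxygen was 0.48 (limma adjusted p = 0.0123), beside 8.10 for Tnni2 and 8.57 for Tnnt3. Mrpl23, a mitochondrial ribosomal protein gene on the far side of Tnnt3, changed by 0.08 (adjusted p = 0.52). Syt8, a synaptotagmin gene on the far side of Tnni2, rose by 1.64 (adjusted p = 0.000236), was lower in hypoxic differentiation medium (−1.32, adjusted p = 0.000655) and had an interaction of −1.29 (adjusted p = 0.00524). Syt8 passed the filter only through normoxic differentiation medium (2.44 and 2.09 FPKM), so its calls are a description and not evidence. Pkp1, a desmosomal plakophilin gene beside Tnnt2, rose by 1.09 (adjusted p = 0.000892) and was also higher with hypoxia in growth medium (1.45, adjusted p = 0.000711), where Tnnt2 fell. Phlda3, beside Tnni1, changed by 0.05 (adjusted p = 0.812).

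Tnnt1 and Tnni3 are immediate neighbours on chromosome 7. Tnni3 was not called changed by differentiation at 21% oxygen beside the 3.31 of Tnnt1, and Dnaaf3, an axonemal dynein assembly gene on the other side of Tnni3, fell by 1.80 (limma adjusted p = 0.000319), from 3.13 and 2.94 FPKM to 0.191 and 0.127. In growth medium at 2% oxygen all 3 fell, Tnnt1 by 3.13, Tnni3 by 1.40 and Dnaaf3 to 0.366 and 0.491 FPKM (adjusted p = 0.00192). In differentiation medium they parted, since Dnaaf3 was higher at 2% than at 21% oxygen (1.29, adjusted p = 0.00158). Of the genes flanking the troponin C genes, Sema3g beside Tnnc1 rose by 1.93 with differentiation at 21% oxygen (adjusted p = 2.88e-05), from 0.214 and 0.289 FPKM to 3.30 and 4.29, and was lower by −2.00 in hypoxic differentiation medium (adjusted p = 2.37e-05). Sema3g, too, passed the filter only through normoxic differentiation medium, so its calls are a description and not evidence. Nisch, on the other side of Tnnc1, changed by −0.14 (adjusted p = 0.239). Both neighbours of Tnnc2 fell where Tnnc2 rose, Ube2c, a mitotic ubiquitin-conjugating enzyme, by 2.74 (adjusted p = 0.00989) and Snx21 by 1.66 (adjusted p = 0.000162). No protein-coding gene of the table overlapped a member. The libraries were stranded per the labels, but the use of strand in counting is not given in the sources used here.

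**Figure D4:**
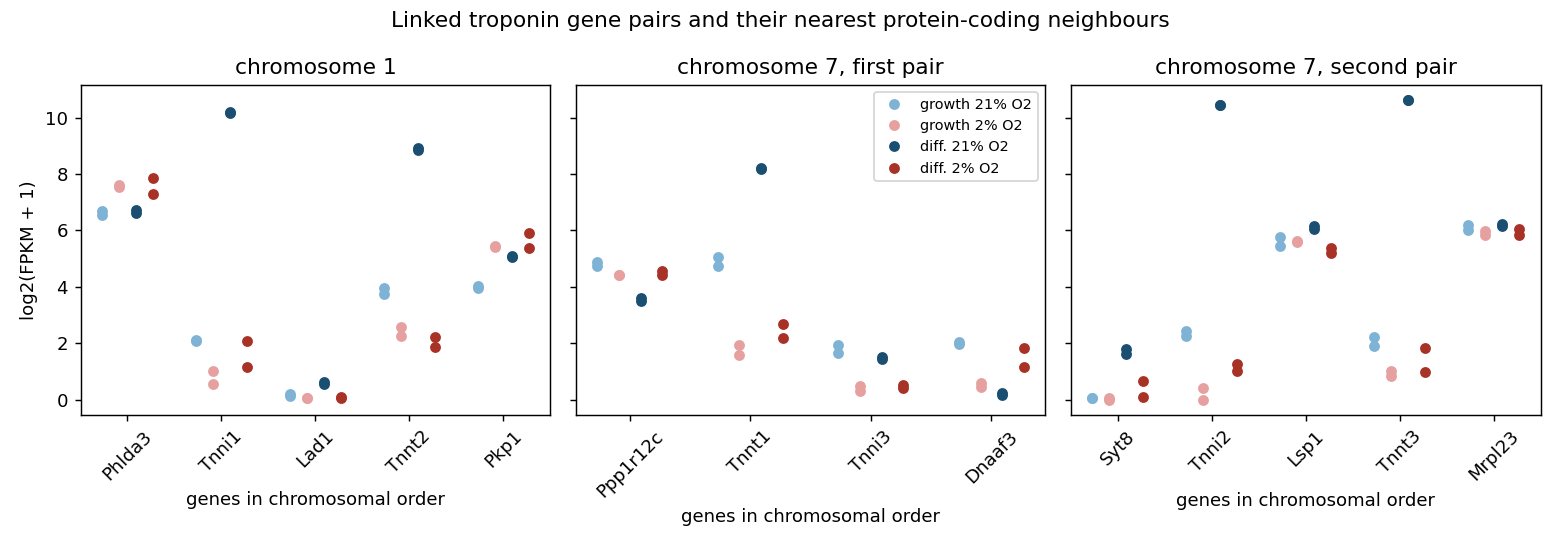
log2(FPKM + 1) of the 3 linked troponin T and I pairs and their nearest protein-coding neighbours in chromosomal order; each point is 1 library, coloured by group. Lad1 and Lsp1, which lie between troponin genes, stay at up to 0.543 FPKM and between 36 and 70.6 FPKM, while Tnni1, Tnnt2, Tnni2 and Tnnt3 spread widely between the groups.

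The partners of troponin on the thin filament were called in both directions. Of 19 tested genes of actin, tropomyosin, leiomodin and related proteins (20 written, 5 that passed the filter through 1 group only), 11 rose and 5 fell with differentiation at 21% oxygen, with a median of 1.56, against 25.5% and 41.0% of all tested genes. Acta1, skeletal actin, went from a mean of 8.86 to 2267 FPKM (log2 change 7.85, limma adjusted p = 1.82e-07), and Actc1, cardiac actin, from 6.59 to 1203 FPKM (7.31, adjusted p = 4.88e-06). At 2% oxygen the same list had 6 higher, 1 lower and 12 not called (median 0.17), against 23.3% of all tested genes higher and 17.6% lower. Acta1 went from 1.70 to 5.77 FPKM there (1.32, limma adjusted p = 0.000771). In differentiation medium 13 of the 19 were lower at 2% oxygen and 5 higher (median −1.60), against 27.7% and 37.5%. In growth medium 8 were lower, 1 higher and 10 not called (median −0.23), against 28.0% of all tested genes lower and 13.5% higher, and Actc1 fell by 2.60 (adjusted p = 0.00124). The interaction was negative for 11 and positive for 5 (median −1.26), against 18.7% and 35.4% of all tested genes.

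Slow and fast muscle genes were called in the direction of most troponins with differentiation at 21% oxygen, while most were not called with differentiation at 2% oxygen or with hypoxia in growth medium. All 11 tested genes of the slow list (12 written, 6 passing through 1 group only) rose with differentiation at 21% oxygen (median 4.45), among them Mb, the oxygen store myoglobin, from 0.505 to 1111 FPKM (9.53, limma adjusted p = 1.82e-07). All 12 genes of the fast list (7 passing through 1 group only) rose too (median 4.36), among them Myl1, a fast myosin light chain, from 4.74 to 3604 FPKM (9.34, adjusted p = 9.6e-07). Since many of these genes passed the filter through the group in which they were high, the counts describe the lists and are not evidence about them. With differentiation at 21% oxygen, 25.5% of all tested genes were called higher. At 2% oxygen 5 slow and 3 fast genes were called higher and none lower (medians 0.39 and 0.15), beside 23.3% and 17.6% of all tested genes. The fast count of 3 out of 12 is near that share and is no result about the list. In differentiation medium 10 of 11 slow genes and 12 of 12 fast genes were lower at 2% oxygen (medians −4.49 and −5.05), and 1 slow gene was higher. The shares of all tested genes were 27.7% lower and 37.5% higher. In growth medium 2 slow and 5 fast genes were lower (medians −0.27 and −0.32) and 1 slow gene was higher. The shares of all tested genes were 28.0% lower and 13.5% higher (18.8% and 20.3% after upper-quartile scaling). The slow count is no result about the list. Actn3, a fast-fibre actinin, fell by 3.28 there (adjusted p = 7.93e-05), while Myh7b, a slow-type myosin heavy chain, rose from 0.033 to 1.47 FPKM (1.26, adjusted p = 0.000276). The interaction was negative for 10 of 11 slow and 12 of 12 fast genes (medians −4.40 and −4.32), beside 18.7% of all tested genes.

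The cardiac list gives the setting for Tnnt2 and Tnni3. Only 4 of its 12 genes passed the filter, 1 of them through 1 group. Myl4, the atrial and embryonic myosin light chain, followed the skeletal pattern, from 2.07 to 944.7 FPKM with differentiation at 21% oxygen (8.29, limma adjusted p = 4.53e-07) and 2.41 FPKM in hypoxic differentiation medium. Nkx2-5, a cardiac transcription factor, fell from 2.10 to 0.807 FPKM (−0.79, adjusted p = 0.00118), and Gata4 and Nppb were not called. Of all tested genes, 25.5% were called higher and 41.0% lower there. With differentiation at 2% oxygen none of the 4 was called, beside 23.3% of all tested genes higher and 17.6% lower. Between the oxygen levels in growth medium none was called either, beside 13.5% higher and 28.0% lower. With hypoxia in differentiation medium (37.5% higher, 27.7% lower) and in the interaction (35.4% positive, 18.7% negative), Myl4 was called lower and Nkx2-5 higher. With 4 genes these counts are no result about the list.

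**Figure D5:**
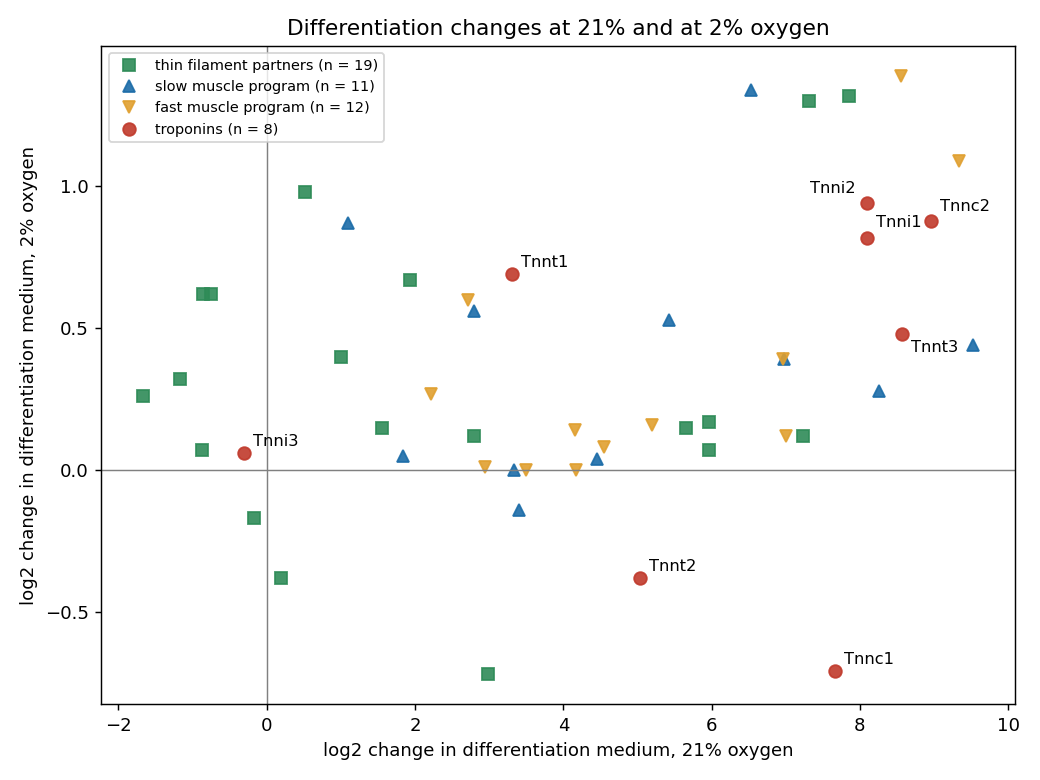
Log2 change with differentiation medium at 21% oxygen (horizontal axis) against that at 2% oxygen (vertical axis) for the troponin genes and the slow, fast and thin filament lists; each point is 1 tested gene. Troponin genes reach 8.96 on the horizontal axis and stay within −0.71 and 0.94 on the vertical axis.

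Known upstream regulators of troponin genes were next compared. Of 18 tested regulators (21 written, 3 passing through 1 group only), 9 rose and 5 fell with differentiation at 21% oxygen (median 0.54), against 25.5% and 41.0% of all tested genes. At 2% oxygen 1 rose and 3 fell (median −0.11), against 23.3% and 17.6%. Between oxygen levels, 11 were lower and 1 higher at 2% oxygen in growth medium (median −0.56), beside 28.0% of all tested genes called lower (18.8% after upper-quartile scaling), and 12 lower and none higher in differentiation medium (median −1.08), beside 27.7%. The interaction was negative for 10 and positive for 4 (median −0.80), beside 18.7% and 35.4%. Myog, the myogenic factor of terminal differentiation, had means of 11.1 ± 3.19 FPKM (SD, n = 2) in growth and 2609 ± 47 in differentiation medium at 21% oxygen, and of 0.392 ± 0.0712 and 3.32 ± 1.67 at 2% oxygen. Like Tnni2, Tnnc2 and Tnnt1 it was called higher with differentiation at 2% oxygen (1.58, limma adjusted p = 0.00561) and stayed below its normoxic growth level. Myod1, the lineage factor of myoblasts, read 123.4 ± 21.6, 176 ± 6.35, 25.6 ± 0.743 and 9.38 ± 3.44 FPKM in the same order. It fell with differentiation medium at 2% oxygen (−1.40, adjusted p = 0.00386), as Tnnc1 did. Mef2c rose by 4.78 at 21% oxygen (adjusted p = 2.07e-07) to 27.7 ± 1.10 FPKM and lay under 0.05 FPKM in the mean of the other 3 groups. It thus passed the filter through 1 group only, and its call is a description.

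Genes that modify troponin or splice its T transcripts were called about as often as all tested genes in several comparisons, so their counts are no result about the list. Of 13 tested genes (14 written, 1 passing through 1 group only), 5 rose and 6 fell with differentiation at 21% oxygen (median −0.19; 25.5% and 41.0% of all tested genes), and 5 rose and 2 fell at 2% oxygen (median 0.18; 23.3% and 17.6%). Hypoxia left 1 higher and 5 lower in growth medium (median −0.20; 13.5% and 28.0%) and 5 higher and 5 lower in differentiation medium (median −0.08; 37.5% and 27.7%), and the interaction was positive for 4 and negative for 3 (median 0.23; 35.4% and 18.7%). Rbfox1, a muscle splicing factor, was listed at 0 in both libraries of normoxic growth medium and had a mean of 2.06 FPKM in normoxic differentiation medium (1.62, limma adjusted p = 6.34e-06). It is the gene of this list that passed the filter through 1 group only, so its call is a description and not evidence. The table holds 1 value per gene, so the spliced forms of troponin T were not measured.

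The genes most like each troponin were found by the distance between profiles of log2(FPKM + 1) over the 8 libraries, among all tested genes outside the family. Mybph, a myosin-binding protein gene, was nearest to Tnnt3 (distance 0.74) and Tnnc2 (1.01), and Acta1 was nearest to Tnni1 (0.79) and Tnni2 (0.96). Lmod2, a leiomodin that lengthens thin filaments, was nearest to Tnnc1 (1.02), the RNA-binding protein gene Rbm24 to Tnnt1 (0.83) and the growth factor gene Igf2 to Tnnt2 (1.01). Hddc3 (0.26) and Ppp1r14b (0.27) were nearest to Tnni3. Both were lower at 2% than at 21% oxygen in each medium, a shared direction that follows from the choice by profile. In growth medium Hddc3 read 58 and 48.3 FPKM at 21% oxygen and 20 and 21.6 at 2% oxygen. Tnni3 fell 7.67-fold there, from a mean of 2.49 to 0.325 FPKM. The closeness holds on the log2(FPKM + 1) scale, which understates changes near 1 FPKM, and not for the folds. Pearson's r across the 8 libraries was between 0.9859 and 0.9990 for the 3 nearest genes of each member; the libraries fall into 4 groups of 2, so these values describe likeness and carry no test. Within the family the closest pairs joined different subunits, Tnnt3 with Tnnc2 (0.84) and Tnnt3 with Tnni1 (0.85). Tnnt1 was closest to Tnnt2 (2.09), and Tnni3 lay 5.86 to 11.17 from every other member.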

How the data were processed

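RNA-seq libraries of C2C12 cells, 2 in each of 4 groups, were compared. The 24 samples of the series also include chromatin and input libraries, which were not analysed here. The authors deposited a gene table in FPKM with 24043 symbols. STAR 2.5.1b, Cufflinks 2.2.1 and the build mm9 are named per the submitters' processing notes, without their roles, and the annotation and use of strand are not given in the sources used here. Total counts were not used, so absolute depth is unknown.

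Genes whose mean reached 1 FPKM in any group were tested (12389 of the 17914 above 0) with limma 3.58.1 in R 4.3.3 on log2(FPKM + 1), with 4 group means over 8 libraries, an intensity trend (4 residual and 2.61 prior degrees of freedom) and Benjamini-Hochberg adjustment over all tested genes of a contrast. Tests are two-sided and the threshold is 0.05. This scale understates changes of genes near 1 FPKM. The fit was tested on simulated data with known changes. Folds are ratios of group means in FPKM. The genes named are the 8 members, their nearest protein-coding neighbours, the 3 nearest profiles of each member, and the called genes with the largest changes in each list, with Myod1, Mef2c, Gata4 and Nppb added for their role. The members and lists were chosen with earlier results of these data known. Promoter windows come from RefSeq (GRCm38.p6), which matched 6 of the 8 members. Alternatives changed the pseudocount, filter, scaling, libraries fitted, library weights, trend, a replicate block and each library in turn.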

Additional observations from a re-analysis of the deposited data

Results flagged for a closer look

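The change with differentiation medium differed between 21% and 2% oxygen for 7 of the 8 troponin genes by the interaction term itself (limma on log2(FPKM + 1), adjusted p under 0.05). The value, the change at 2% oxygen minus that at 21% oxygen, was −8.37 for Tnnc1, −8.09 for Tnnt3, −8.07 for Tnnc2, −7.28 for Tnni1, −7.16 for Tnni2, −5.42 for Tnnt2 and −2.62 for Tnnt1.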

How the results depend on the processing

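Of the 8 troponin genes, 7 were called for differentiation at 21% oxygen, 7 for the interaction, and 7 (growth medium) and 8 (differentiation medium) for hypoxia, and these counts stayed within 1.5 times under every alternative run (7 to 8, 7, 5 to 8 and 8 when each library was left out). Differentiation at 2% oxygen was less stable. Its count of 4 (limma adjusted p) became 2 without a filter, 1 with only the libraries compared, 2 with library weights and 0 when a log2 change of at least 1 was also required, since no fitted change reached 1 on the log2(FPKM + 1) scale, and it ran from 1 to 6 when each library was left out. In that comparison Tnni3 changed sign without hypoxic growth replicate A, from 0.06 to −0.04, and ran from −0.04 to 0.15 over the left-out libraries. The A minus B differences were not shared between groups, with correlations of −0.166 to 0.042. Whether A and B were cultured or processed together across groups cannot be told from these correlations. A fit with a replicate block called 7, 3, 7, 8 and 7 troponin genes in the 5 comparisons, and Tnnt1 lost its rise at 2% oxygen (adjusted p = 0.0524). Tnnt1 also lost it with median-of-ratios (limma adjusted p = 0.0618) and upper-quartile scaling (0.0551). The same held without a filter (0.0623), with only the libraries compared (0.127) and with library weights (0.0896). Tnnc2 had an adjusted p of 0.0902 for that rise with only the libraries compared, and the fall of Tnnc1 had 0.064 there and 0.0776 without hypoxic growth replicate B. Over single-gene values, 595 kept direction and side of the threshold, 27 lost and 9 gained a call, and 1 reversed; the cause was not tested. Median-of-ratios scaling moved the median of all tested genes from −0.20 to 0.02 (differentiation at 21% oxygen), from −0.14 to −0.04 (hypoxia, growth medium), from 0.15 to −0.02 (hypoxia, differentiation medium) and from 0.27 to −0.01 (interaction). These shifts are far below the interaction values of the 7 genes named above. The change of Tnnc1 with hypoxia in growth medium was smaller, at 0.43, and its call there depended on the scaling.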
